A study of Mus musculus with 12 samples.

Results

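The 10 genes described here are the AP-1 genes Fos, Fosb, Fosl1, Fosl2, Jun, Junb and Jund and the early growth response genes Egr1, Egr2 and Egr3. They were taken by gene name from a table of raw read counts with 54447 rows, each name matched 1 row, and all 10 passed the filter on low counts that left 13608 rows for testing. RNA was sequenced from mouse fibroblasts, labelled mouse embryonic fibroblasts and, by the methods, of the NIH3T3 line. The cells carried a lentiviral, doxycycline-inducible (Tet-on) construct for either N-VEGF, the His-tagged N-terminal part of the long form of VEGF, or NLS-N-VEGF, the same part fused to the nuclear localization sequence of Cas9. The 4 groups were these 2 populations, each untreated and treated with doxycycline (dox). All 4 thus carried the vector and its puromycin resistance, so each no-dox group is the control of its own infected population, and no uninfected cells are among the 12 libraries. Each group had 3 libraries, labelled with a number and a suffix of digits. The same 2 suffixes recur in every group and are called A and B here, so the libraries are 1A, 2A and 2B. The labels do not say what the suffixes stand for. Nothing in the labels says that the 3 libraries of a group came from separate cultures, so the p-values below measure the spread between these libraries, which may be technical.

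AP-1 is a pair of basic leucine zipper proteins. The Jun proteins can pair with each other, whereas the Fos proteins bind DNA only when paired with a Jun protein. The EGR proteins are zinc finger transcription factors that bind GC-rich sites. In fibroblasts most of these genes are immediate early genes: serum, growth factors or stress raise their transcription within minutes, through ERK and related kinases and the factors SRF and CREB, without new protein synthesis, and the transcripts of several of them are quickly destroyed again. Fosl1, Fosl2 and Jund differ from Fos and Fosb in being later or more steadily expressed. RNA sequencing of total transcripts reads the standing level of these messages at the time of harvest, not a brief induction before it.

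Promoters of 7 of the 10 members were in the RefSeq promoter table (build GRCm38.p6, 32851 windows of 300 bases that run from 250 bases before each start site to 50 after it). The 3 windows printed are shown because they hold textbook control elements of early genes. Those of Fos and Egr2 hold cores of the CREB site, and that of Egr2 also an SRF site. That of Jun holds the site through which AP-1 acts on it. No SRF site was found in the Fos window, since the best known one of Fos lies further upstream. The windows are given 5′ to 3′ on the strand of the gene, in lower case with motif matches in capitals.
Fos, chr12:85473640-85473939, plus strand: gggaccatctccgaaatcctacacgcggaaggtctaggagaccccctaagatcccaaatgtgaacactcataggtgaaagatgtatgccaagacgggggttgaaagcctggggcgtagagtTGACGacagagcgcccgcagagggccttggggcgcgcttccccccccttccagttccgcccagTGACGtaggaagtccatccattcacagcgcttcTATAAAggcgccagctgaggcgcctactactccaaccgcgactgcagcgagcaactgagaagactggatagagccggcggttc
Egr2, chr10:67537619-67537918, plus strand: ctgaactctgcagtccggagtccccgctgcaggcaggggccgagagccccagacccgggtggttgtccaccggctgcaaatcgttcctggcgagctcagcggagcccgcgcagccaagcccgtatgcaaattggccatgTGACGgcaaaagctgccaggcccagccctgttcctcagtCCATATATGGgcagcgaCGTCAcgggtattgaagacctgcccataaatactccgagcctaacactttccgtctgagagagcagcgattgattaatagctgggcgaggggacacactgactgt
Jun, chr4:95052173-95052472, minus strand: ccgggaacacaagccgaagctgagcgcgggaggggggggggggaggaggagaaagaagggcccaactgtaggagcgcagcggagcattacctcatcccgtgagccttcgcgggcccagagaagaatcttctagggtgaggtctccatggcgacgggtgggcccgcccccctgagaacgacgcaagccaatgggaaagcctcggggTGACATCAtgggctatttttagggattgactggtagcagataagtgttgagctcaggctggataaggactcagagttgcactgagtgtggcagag

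The capitals in the Fos window mark TGACG, the core of the CREB site (CRE), from position -129 and from position -66 relative to the start site, and the TATA box TATAAA from -33. In the Egr2 window, which belongs to a RefSeq start site inside the annotated gene and was the Egr2 window with the most matches, they mark TGACG from -111, a CArG box (the SRF site) from -72 to -63, and the CRE core of the other strand, read as CGTCA, from -55 to -51. The capitals in the Jun window mark TGACATCA, the known site of Jun's own control, from -45 to -38. Both strands were searched. A CArG box was found in 1.63% of the windows, the core TGACG in 20.8%, TGACATCA in 3.62% and TATAAA in 13.6%. The full CRE, TGACGTCA, which contains that core, was found in 1.79% of the windows and the AP-1 site TGANTCA in 7.81%, and neither was found in a window of a member. The EGR site GCGNGGGCG was found in 5.55% of the windows, those of Fosb and Fosl2 among them. TGACG was also found in the windows of Fosb and Junb, and TATAAA in that of Junb. All these shares are per window, and Egr2 had 5 windows. A match describes the letters only.

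The libraries held between 13549331 and 18982127 counts, so 3 counts, the smallest level taken as measurable, correspond to a level of 0.158 to 0.221 CPM (counts scaled to a library size of 1000000), and these limits cover counting error only. The row of the construct insert had between 5 and 12 counts in the 6 libraries without dox and between 35 and 268 in the 6 with dox. Of 12 fibroblast markers, 10 had a mean over the libraries of at least 1 CPM, and the 12 had a summed level between 11270 and 14250 CPM, while Postn reached at most 0.736 CPM and Lum at most 1.86 CPM. Summed epithelial markers lay between 2.03 and 3.79 CPM, endothelial ones between 4.07 and 7.43 CPM and macrophage ones between 8.91 and 14.0 CPM, with Krt5 at 0 in all libraries and Epcam, Kdr, Adgre1 and Itgam at most at 0.0714 CPM in any. Others of these lists were measurable: Csf1r at 4.64 to 10.1 CPM, Cd68 at 2.44 to 5.39, Cdh5 at 1.84 to 3.46 and Flt1 at 1.68 to 3.11. Krt14 and Cdh1 reached 2.48 and 1.71 CPM. In such bulk samples, fewer cells that express a gene and less of its RNA per cell cannot be told apart. Libraries 1A and 2A of the N-VEGF cells without dox stood further apart than those of the other groups: a chi-square statistic of their counts per gene was 26.6, against 1.76, 5.02 and 3.08 in the other 3 groups. For most calls in suffix A alone that rest on these libraries, log2 differences are also given without each of them.

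Per kilobase of exon, the members fell into an upper and a lower range. Over the 12 libraries Jun had 59.4 ± 9.09 CPM per kb (SD, n = 12), Fosl1 52.4 ± 7.70, Egr1 39.5 ± 14.9 and Fosl2 20.2 ± 2.40. Junb had 12.7 ± 1.96, Jund 9.20 ± 2.14 and Egr3 5.48 ± 1.1 CPM per kb. The lowest were Fos with 1.1 ± 0.461, Fosb with 0.938 ± 0.148 and Egr2 with 0.745 ± 0.32 CPM per kb. In this order the ranges over libraries of each gene and the next one overlapped, except for the step from Egr3 to Fos. Fos and Fosb, textbook cases of brief induction, were thus among the least abundant on this scale, whereas Egr1 was among the most abundant. The level of Fosl1 and Jund is uncertain, since 57.2% and 52.6% of their exon bases lie opposite exons of another gene and the kit did not mark strand (values are given with the suffix comparison).

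**Figure D1:**
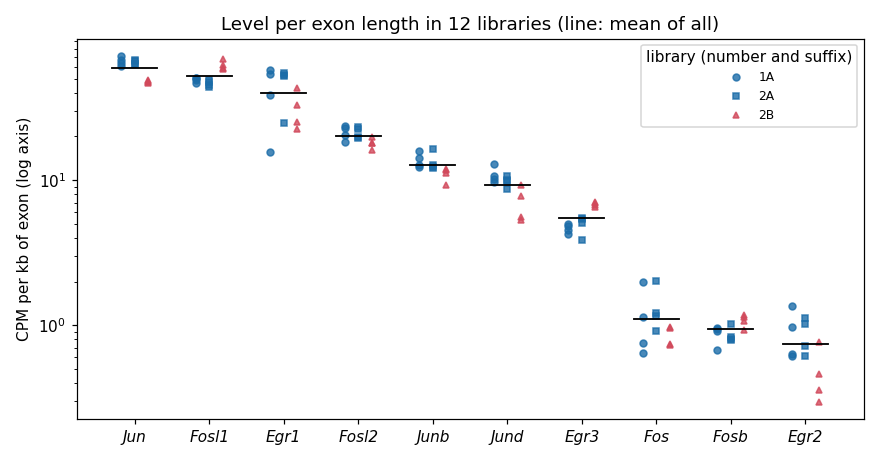
Level of each gene as CPM per kb of exon (vertical log axis) in all 12 libraries, 1 symbol per library by label number and suffix, with a line at the mean. Jun, Fosl1 and Egr1 lie highest, and Fos, Fosb and Egr2 lie lowest, below Egr3 in every library.

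Among the Fos proteins, which need a Jun partner, Fos itself varied most. Fos stood at 4.66, 4.78 and 1.71 CPM in libraries 1A, 2A and 2B of the untreated NLS-N-VEGF cells, the order used for all values here, and at 1.77, 2.72 and 2.25 CPM after dox. Untreated N-VEGF cells gave 1.51, 2.16 and 2.27 CPM and treated ones 2.69, 2.88 and 1.74 CPM. The 2 libraries of suffix A of the NLS-N-VEGF cells without dox were the highest of the 12, and the third library of that group was among the 3 lowest. Behind these values stood between 24 and 81 counts per library, and the coefficient of variation over the 12 libraries was 41.8%, against 15.8% for Fosb, 14.7% for Fosl1 and 11.9% for Fosl2.

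Fosb, Fosl1 and Fosl2 differed little between groups. Fosb had group means of 6.07 ± 0.96 and 6.49 ± 0.865 CPM in untreated and treated NLS-N-VEGF cells and of 5.87 ± 0.797 and 5.0 ± 0.791 CPM in N-VEGF cells (SD, n = 3). Fosl1, the gene of Fra-1, had group means between 103 and 110.3 CPM. Within every group its library 2B was the highest, with 126, 121, 117 and 139 CPM, against 88.5 to 103 CPM in the 8 libraries of suffix A. Fosl2, the gene of Fra-2, ranged from 157 to 228 CPM.

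Jun, the core partner of AP-1, was even across the groups and uneven across the suffixes. It reached 212, 216 and 148 CPM in untreated and 194, 201 and 150.3 CPM in treated NLS-N-VEGF cells. In N-VEGF cells Jun reached 227, 211 and 154 CPM untreated and 203, 202 and 156 CPM treated. The last value of each group is library 2B, and all 4 of these lay below all 8 others. Junb, a Jun protein that often acts against Jun itself, gave 36.3, 37.8 and 25.8 CPM in untreated and 29.2, 28.0 and 26.8 CPM in treated NLS-N-VEGF cells. Its values were 28.2, 28.1 and 21.3 CPM in untreated and 32.7, 29.3 and 27.5 CPM in treated N-VEGF cells. The highest 2 were again those of suffix A in NLS-N-VEGF cells without dox. Jund ranged from 8.86 CPM in library 2B of N-VEGF cells without dox to 21.6 CPM in library 1A of the same group.

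Egr1, the EGR gene most widely induced by growth factors, had the largest fold difference between group means of the 10 members. Its levels were 241, 239 and 113 CPM in untreated and 172, 234 and 193 CPM in treated NLS-N-VEGF cells. The untreated N-VEGF cells had 69.8, 112 and 101 CPM and the treated ones 258, 245 and 148 CPM. The 3 libraries of N-VEGF cells without dox were the 3 lowest of the 12, and library 2B of NLS-N-VEGF cells without dox, with 113 CPM, came next. The group means were 197 ± 73.5, 199 ± 31.7, 94.1 ± 21.7 and 217 ± 59.8 CPM (SD, n = 3) in the same order of groups, so the Egr1 means of the 2 populations stood apart before dox and close together after it.

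Egr2, best known from Schwann cells and also induced by serum, stood at 4.6, 3.83 and 1.21 CPM in untreated and 2.14, 2.43 and 2.60 CPM in treated NLS-N-VEGF cells. N-VEGF cells gave 2.07, 2.1 and 1.57 CPM untreated and 3.31, 3.47 and 1.0 CPM treated. The 2 highest of the 12 were 1A and 2A of the untreated NLS-N-VEGF cells, the lowest were the 2B libraries of that group and of treated N-VEGF cells, and the fewest counts behind a value were 15. Egr3, an EGR gene that growth signals also induce, had 21.3, 23.9 and 30.6 CPM in untreated and 18.7, 22.2 and 31.3 CPM in treated NLS-N-VEGF cells. Its values in N-VEGF cells were 20.1, 17.1 and 29.8 CPM untreated and 21.8, 24.3 and 28.7 CPM treated. Its 4 libraries of suffix B were the 4 highest.

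**Figure D2:**
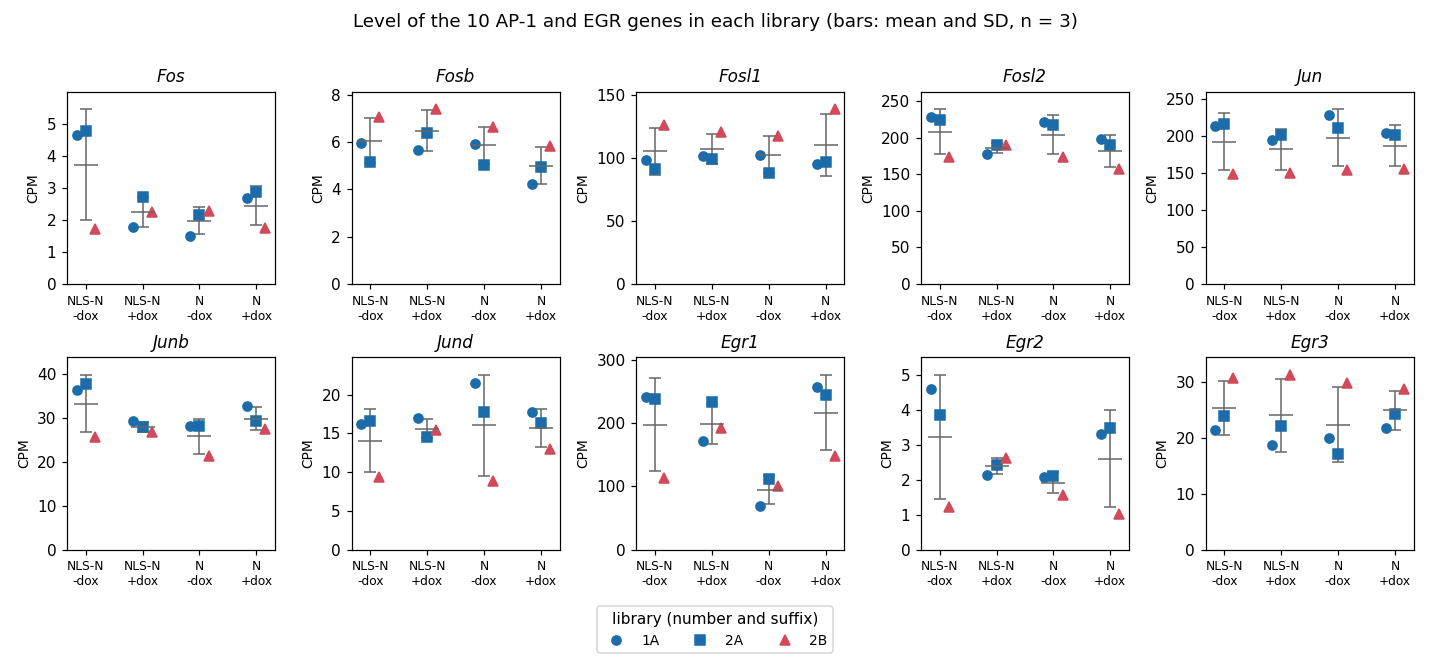
CPM of each of the 10 genes (vertical axes from 0) in untreated and dox-treated NLS-N-VEGF (NLS-N) and N-VEGF (N) cells, with 1 symbol per library by label number and suffix, and bars for the group mean and SD (n = 3). Egr1 was lowest in all 3 libraries of N-VEGF cells without dox, and Jun, Fosl1 and Egr3 separated by suffix in every group.

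The first comparison asks what dox, and with it the construct, does in each population. In N-VEGF cells Egr1 was 2.31-fold higher with dox, a log2 difference of 1.21 (SE 0.29, higher in 3 of 3 like-labelled pairs), with an unadjusted p of 0.00136 and an adjusted p of 1 from edgeR's quasi-likelihood test over all genes tested. By that test 0 of the 10 members were called, against 0.0367% of all genes, and 1 of 10 had an unadjusted p under 0.05 (Egr1), against 1.48% of all genes. The Wald test of DESeq2 called 1 member, Egr1, with an adjusted p of 0.0415. The values of Egr1 with and without dox did not overlap, which holds for 3.92% of all genes in this comparison.

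Like-labelled libraries of different groups varied together, in suffix A little more than libraries of that suffix with another number. A fit with the label as a block gave Egr1 a log2 difference of 1.17 (SE 0.20) and an edgeR adjusted p of 0.0241. In that fit Egr1 was called higher, the only 1 of the 10 members, against 0.11% of all genes. The ratio differed between the pairs: its log2 was 1.88 in pair 1A, 1.13 in pair 2A and 0.55 in pair 2B. The insert row moved with dox as well, to 7.56, 8.08 and 17.9 CPM in these 3 dox libraries, and Egr1's ratio was smallest in the pair with most insert counts. In NLS-N-VEGF cells the insert row reached 2.57, 2.58 and 10.2 CPM with dox, and there Egr1's ratio was largest in the pair with most insert counts (values with that comparison). The part of the insert level in these differences was not tested. With the suffix alone as a term in place of the label, Egr1 was not called, at a log2 difference of 1.15 and an edgeR adjusted p of 0.0509. Within suffix A alone, edgeR gave Egr1 a log2 difference of 1.46 (SE 0.19) and an adjusted p of 0.0135, again the only member called, against 0.12% of all genes.

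The call of Egr1 under the block was made in 8 of 12 fits that each left out 1 library, with log2 differences between 0.91 and 1.43. Without library 1A of N-VEGF cells without dox, the lowest, the log2 difference was 0.91 and the edgeR adjusted p 0.0444. The call was lost, by the same test, without library 2A of the same group (adjusted p = 0.318) and without each of the dox libraries 1A (0.107), 2A (0.112) and 2B (0.0638). In suffix A alone it was lost without either dox library, with adjusted p-values of 0.226 and 0.141, where the remaining dox library is assumed to vary like the other groups.

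The other members had smaller or mixed differences with dox in N-VEGF cells. Fos had a log2 difference of 0.30 (SE 0.37), Egr2 of 0.45 (SE 0.48) and Junb of 0.21 (SE 0.15), and those of the remaining 6 members lay between -0.23 and 0.16. Fos and Egr2 were higher with dox in both pairs of suffix A, by log2 ratios of 0.67 and 0.35 for Fos and 0.57 and 0.61 for Egr2, and lower in pair 2B, by -0.31 and -0.46. Fosb was lower with dox in 3 of 3 pairs, with log2 ratios of -0.43, -0.03 and -0.17, and Fosl2 likewise with -0.16, -0.20 and -0.15, both without a call.

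In NLS-N-VEGF cells edgeR called 0 of the 10 members with dox, against 0.022% of all genes, and 0 of 10 had an unadjusted p under 0.05, against 2.34%. DESeq2 called 0 as well. Egr1 had a log2 difference of 0.01 (SE 0.29), Fos of -0.74 (SE 0.36), Egr2 of -0.44 (SE 0.47) and Junb of -0.25 (SE 0.15), and the remaining 6 lay between -0.16 and 0.15. These averages joined pairs of opposite sign. Egr1 had log2 ratios of -0.49, -0.03 and 0.77 in pairs 1A, 2A and 2B, Fos of -1.19, -0.71 and 0.31, and Egr2 of -0.95, -0.57 and 0.86. With the label as a block, Fos had a log2 difference of -0.72 (SE 0.29) and Junb of -0.24 (SE 0.10). Their edgeR unadjusted p-values were 0.0229 and 0.0235, and the adjusted ones 0.578 and 0.580. Within suffix A alone the log2 difference of Egr1 was -0.25, that of Fos -1.11 and that of Egr2 -0.90, with edgeR adjusted p-values of 0.663, 0.0829 and 0.0971, and 0 of 10 members were called there, against 0.814% of all genes. The values with and without dox overlapped for all 10 members, while 9.25% of all genes had none in common.

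**Figure D3:**
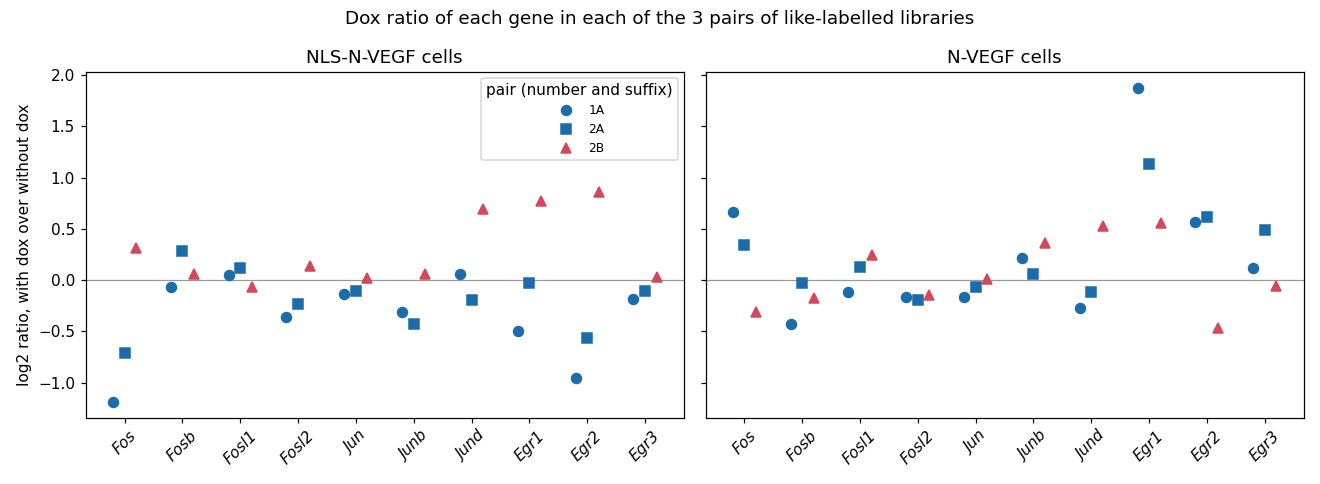
Log2 ratio of the level with dox over that without dox for each gene, in NLS-N-VEGF cells (left) and N-VEGF cells (right), with 1 symbol for each of the 3 pairs of like-labelled libraries. Fos and Egr2 lie below 0 in both pairs of suffix A on the left and above 0 on the right, with pair 2B on the other side of 0 each time, and Egr1 lies above 0 in all 3 pairs on the right.

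The difference of the dox effects tests whether dox acted unlike in the 2 populations. Egr1 had a difference of -1.19 (SE 0.41) on the log2 scale, NLS-N-VEGF minus N-VEGF, with an unadjusted p of 0.0125 and an adjusted p of 1 from edgeR. By that test 0 of 10 members and 0% of all genes were called, and 1 member, Egr1, had an unadjusted p under 0.05, against 0.852% of all genes. DESeq2 called 0 members. Fos had a difference of -1.04 (SE 0.52), Egr2 of -0.89 (SE 0.67) and Junb of -0.46 (SE 0.21), and those of the remaining 6 lay between -0.23 and 0.33. With the label as a block, Egr1 had -1.11 (SE 0.28), Junb -0.45 (SE 0.14) and Fos -0.99 (SE 0.42). Their edgeR unadjusted p-values were 0.00111, 0.00405 and 0.0312, with no member called. Junb's difference was negative in 3 of 3 pairs, at -0.52, -0.49 and -0.30, whereas that of Egr1 was -2.37, -1.16 and 0.22. Within suffix A alone Egr1 had a difference of -1.71 (SE 0.26), with an edgeR adjusted p of 0.0675, so that 0 of 10 members were called there, against 0.0299% of all genes. Without library 1A or 2A of N-VEGF cells without dox, the pair that stood apart, the difference of Egr1 was -1.42 and -2.09. The remaining library is then assumed to vary like those of the other groups.

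Before dox, Egr1 of the NLS-N-VEGF cells was 2.1-fold above that of N-VEGF cells, a log2 difference of 1.07 (SE 0.29). The unadjusted p was 0.00312 and the edgeR adjusted p 1, and 0 of 10 members and 0% of all genes were called. The values of the 2 populations did not overlap for Egr1, as for 3.25% of all genes. This comparison and that of dox in N-VEGF cells share the same 3 control libraries, so the low Egr1 values there enter both. With an unadjusted p under 0.05 stood 3 members, against 0.603% of all genes: Egr1, Fos with a log2 difference of 0.91 (SE 0.37) and Junb with 0.37 (SE 0.15). DESeq2 called 0 members. The log2 ratios by pair were 1.78, 1.09 and 0.16 for Egr1, 1.36, 0.99 and -0.33 for Fos, 0.36, 0.42 and 0.27 for Junb and 0.99, 0.74 and -0.28 for Egr2. With the label as a block, Egr1 had a log2 difference of 1.02 (SE 0.20, edgeR unadjusted p = 0.000106, adjusted p = 0.724). Junb (unadjusted p = 0.00144), Fos (0.00798) and Egr2 (0.0458) followed in that fit, and no member was called. In suffix A alone Egr1 had a log2 difference of 1.40 (SE 0.19) and an edgeR adjusted p of 0.0395, and was the only member called, against 0.0373% of all genes. That call was made in 2 of 8 fits that left out 1 library, those without library 1A or 2A of N-VEGF cells without dox, where the log2 difference was 1.1 and 1.77 and the remaining library is assumed to vary like those of the other groups. It was lost without each of the other 6, with edgeR adjusted p-values between 0.115 and 0.528.

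With dox the populations had closer means for Egr1, Fos, Egr2 and Junb. Egr1 had a log2 difference of -0.12 (SE 0.29), Fos of -0.13 (SE 0.37), Egr2 of -0.13 (SE 0.47) and Junb of -0.09 (SE 0.15), NLS-N-VEGF against N-VEGF. The remaining 6 lay between -0.05 and 0.38, of which the highest was Fosb, with pair ratios of 0.38, 0.35 and 0.32. With the label as a block Fosb had 0.37 (SE 0.15), with an edgeR unadjusted p of 0.0217 and no call. The averages of Egr1, Fos and Egr2 joined pairs of opposite sign. Log2 ratios in pairs 1A, 2A and 2B were -0.585, -0.067 and 0.376 for Egr1 and -0.529, -0.439 and 1.045 for Egr2. Those of Fos were -0.491, -0.066 and 0.295. In pair 2B Egr1 and Egr2 differed more with dox than before it, where the ratios were 0.159 and -0.275. By edgeR 0 of 10 members and 0% of all genes were called, 0 members had an unadjusted p under 0.05, against 1.18% of all genes, and DESeq2 called 0 members. The values of the populations overlapped for all 10, whereas they did not for 6.49% of all genes.

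Because the pairs of the 2 suffixes went apart, the difference of the dox effect between the suffixes was tested in a model with 8 means, an analysis added after the values had been seen. EdgeR called 0 of 10 members and 0% of all genes in each of its 3 contrasts. In NLS-N-VEGF cells 6 of 10 members had an unadjusted p under 0.05, against 5.39% of all genes, each with a dox difference that was higher in suffix B. For Egr2 the log2 difference between suffixes was 1.99 (SE 0.43, unadjusted p = 0.000839, edgeR adjusted p = 0.372). It was 1.49 for Fos, 1.02 for Egr1, 0.77 for Jund and 0.43 for Fosl2 and Junb. In N-VEGF cells 3 members had an unadjusted p under 0.05, against 8.95% of all genes: Egr2 with -1.35, Egr1 with -0.91 and Jund with 0.76. For the difference of the dox effects 4 members had one, against 5.5% of all genes: Egr2 with 3.34, Fos with 2.48, Egr1 with 1.93 and Fosl2 with 0.40. The suffix B has 1 library per group, so these values rest on single libraries whose spread is assumed to be that of suffix A.

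More members were called between the suffixes than between the groups, in a comparison of more libraries. With group in the model, edgeR called 9 of 10 members between suffix B (4 libraries) and suffix A (8 libraries), against 45.6% of all genes. Of these 3 were higher with suffix B, against 22.2% of all genes, and 6 were lower, against 23.5%. Higher were Egr3 with a log2 difference of 0.52 (SE 0.08, adjusted p = 5.55e-05), Fosl1 with 0.38 (SE 0.06, adjusted p = 6.86e-05) and Fosb with 0.31 (SE 0.10, adjusted p = 0.0188). Lower were Jun with -0.45 (SE 0.05, adjusted p = 3.85e-06), Jund with -0.57 (SE 0.13, adjusted p = 0.00235) and Junb with -0.29 (SE 0.07, adjusted p = 0.00307). So were Fosl2 with -0.24, Egr2 with -0.84 and Egr1 with -0.42, with edgeR adjusted p-values of 0.00531, 0.0142 and 0.0439. Fos, with -0.44 (SE 0.23), was not called, at an adjusted p of 0.133.

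The families were split by this comparison: of the Fos genes Fosb and Fosl1 were higher and Fosl2 lower, all 3 Jun genes were lower, and of the EGR genes Egr3 was higher and Egr1 and Egr2 lower. The values of the suffixes did not overlap for Fosl1, Jun, Junb and Egr3, 4 of 10 members, against 28% of all genes. These 4, Fosb and Jund also differed the same way in all 4 groups, Jund by only -0.025 in treated NLS-N-VEGF cells. Against library 2A alone, the difference of Jund in that group was 0.083. In untreated and treated NLS-N-VEGF and untreated and treated N-VEGF cells, Jun gave -0.53, -0.39, -0.51 and -0.38 on the log2 scale and Egr3 0.43, 0.61, 0.67 and 0.32. By contrast Egr2 gave -1.46, 0.16, -0.32 and -1.37 in the same order and Egr1 -1.09, -0.06, 0.19 and -0.76. Both were thus furthest below suffix A in the untreated NLS-N-VEGF and the treated N-VEGF cells.

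Markers of cell types moved with the suffix as well. Of 11 fibroblast markers tested, edgeR called 4 higher and 4 lower with suffix B, against 22.2% and 23.5% of all genes, among them the receptor gene Pdgfra (-1.32, adjusted p = 3.31e-08), the collagen gene Col3a1 (-1.22, 2.42e-06) and Lum (5.26, 7.68e-07), which stood at most at 1.86 CPM. Their summed level overlapped, at 11270 to 14250 CPM in suffix A and 11600 to 13200 CPM in suffix B. The epithelial markers summed to between 2.03 and 3.32 CPM in suffix A and 3.26 and 3.79 CPM in suffix B, with Krt14 called higher (0.73), 1 of 2 tested. Of the 2 macrophage markers tested Cd68 was called higher (0.83) and Csf1r lower (-0.43), and the 6 summed to between 8.91 and 14.0 CPM in suffix A and 10.5 and 12.7 CPM in suffix B. Of 3 endothelial markers tested 0 were called and 0 had an unadjusted p under 0.05 by edgeR. The part of these markers in the members' suffix differences was not tested.

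Single libraries decided some of these calls. That of Egr2 was lost without library 2B of NLS-N-VEGF cells without dox (log2 difference -0.56, edgeR adjusted p = 0.111) and without that of N-VEGF cells with dox (-0.60, 0.102). Those 2 omissions ended the call of Fosb as well, at 0.29 (adjusted p = 0.0665) and 0.30 (0.0572). The call of Egr1 was lost in 8 of 12 omissions, with the smallest differences again without these 2 libraries, at -0.22 (adjusted p = 0.273) and -0.31 (0.214). The others were libraries 1A and 2A of untreated NLS-N-VEGF and of treated N-VEGF cells, and 2A of the remaining groups, each giving between -0.39 and -0.41. Fos was called lower without library 1A or 2B of N-VEGF cells without dox, at -0.55 (0.0349) and -0.70 (0.0328).

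**Figure D4:**
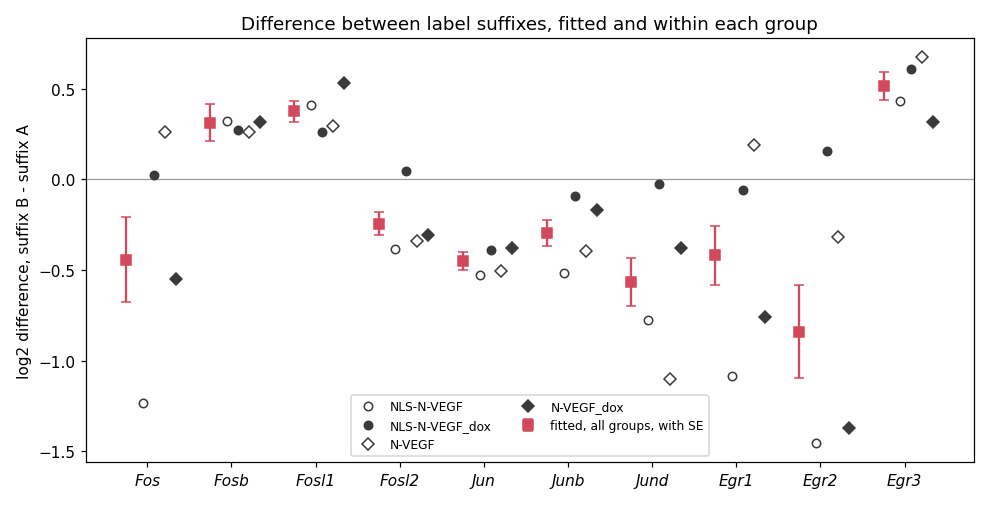
Log2 difference between suffix B and suffix A for each gene, as fitted over all groups with its SE (squares) and within each of the 4 groups (circles for NLS-N-VEGF, diamonds for N-VEGF cells, filled with dox). Fosb, Fosl1 and Egr3 lie above 0 and Jun, Junb and Jund below 0 in all 4 groups, while Fos, Egr1 and Egr2 spread widely between groups. Jund lies close to 0 in treated NLS-N-VEGF cells, at -0.025.

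Where exons of a member overlap those of an antisense neighbour, its count depends on how strand was used in counting, which the sources do not state. Reads in the overlap could have been left out or counted for either gene. In the GENCODE annotation of GRCm38, exons of Fosl1 (chromosome 19) overlap those of Ccdc85b over 57.2% of the Fosl1 exon bases, and those of Jund (chromosome 8) overlap Gm11175 over 52.6%. Ccdc85b had between 25.2 and 37.5 CPM and a suffix difference of 0.00 on the log2 scale. Gm11175 had 0 counts in all 12 libraries, so no read of its overlap with Jund was counted for Gm11175. For Jun the overlap with Junos was 7.28% and for Junb that with Prdx2 7.52%, and the other 6 members had none. The part of these neighbours in the members' values was not tested.

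The rest of the immediate early program gave 0 calls of 35 genes tested in each of the 5 group comparisons by edgeR without the block. At an unadjusted p under 0.05 stood 2, 4, 1, 1 and 2 genes (dox in NLS-N-VEGF cells, dox in N-VEGF cells, the difference, and the populations with and without dox). Of all genes 2.34%, 1.48%, 0.852%, 1.18% and 0.603% did, in the same order. Of the 35, 8 had a difference of the dox effects above 0, against 51.3% of all genes, and the median was -0.089, against 0.005. Within suffix A alone, edgeR called Cyr61 and Ier2 higher with dox in N-VEGF cells, the 2 of 35 called there, against 0.12% of all genes. Their log2 differences were 0.57 and 0.53 (edgeR adjusted p = 0.0245 for each). Both are serum-induced early genes like Egr1. In NLS-N-VEGF cells of that suffix Btg2, a growth inhibitor gene, was lower by -0.86 (edgeR adjusted p = 0.00367), Ctgf by -0.57 (0.0193) and Cyr61 by -0.42 (0.0384). These were the 3 of 35 called there, against 0.814% of all genes. The difference of the dox effects was called for Cyr61 at -0.99, Btg2 at -1.13 and Ier2 at -0.78, against 0.0299% of all genes. Their edgeR adjusted p-values were 0.0419, 0.0451 and 0.0451. Before dox Cyr61 was higher in the NLS-N-VEGF population by 0.96 (edgeR adjusted p = 0.00209) and Ier2 by 0.57 (0.0357), against 0.0373% of all genes called. For the calls of Cyr61, Ier2 and Btg2 that use N-VEGF cells without dox, library 1A or 2A of that group was also left out. The remaining library is then assumed to vary like those of the other groups, so only log2 differences are given. With dox these were 0.57 for Cyr61 and 0.49 and 0.56 for Ier2. In the difference of the dox effects they were -0.99 for Cyr61, -1.14 and -1.1 for Btg2 and -0.75 and -0.81 for Ier2. Before dox they were 0.96 for Cyr61 and 0.54 and 0.60 for Ier2. Leaving out libraries of the other groups was not tested for these genes.

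Between the suffixes 10 of these 35 genes were higher, against 22.2% of all genes, and 11 lower, against 23.5%, with a median of -0.007, against 0.005. The 4 with the smallest edgeR adjusted p were Ier2 (-0.81, 3.39e-07), Socs3 (-0.66, 1.57e-06), Ctgf (1.08, 1.75e-06) and Btg2 (-0.92, 6.87e-06).

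The partners and antagonists of AP-1 among the basic leucine zipper genes had 0 calls of 10 tested in each group comparison. With dox in N-VEGF cells 1 of them had an unadjusted p under 0.05, against 1.48% of all genes. Between the suffixes 8 of 10 were lower, against 23.5% of all genes, and 0 higher, against 22.2%, with a median of -0.293, against 0.005 over all genes. The first by edgeR adjusted p were Jdp2, a repressor of AP-1 (-0.58, 2.46e-06), Cebpg (-0.40, 3.74e-05), Atf3, a stress-induced partner of Jun (-1.61, 5.21e-05), and Cebpd (-0.52, 0.000562). The regulators upstream had 0 calls by edgeR in the group comparisons, and without the block 0 genes at an unadjusted p under 0.05. Up to 1 gene of the SRF and CREB list and up to 2 of the kinases had one in a group comparison with the block, and in suffix A alone up to 1 and 3. Of 12 genes for SRF, its cofactors and CREB, 3 were higher and 3 lower between the suffixes, near the 22.2% and 23.5% of all genes, with the lowest adjusted p for Crtc2 (0.55, 8.40e-07) and Creb1 (-0.37, 0.000368). Of 20 kinases of the ERK, JNK and p38 pathways, 6 were higher and 4 lower, also near these shares, among them Mapk9, the gene of JNK2 (0.65, 2.94e-07), and Rps6ka2 (-0.55, 1.51e-05).

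Downstream of AP-1, 7 of 20 listed target genes were higher with suffix B, against 22.2% of all genes, and 3 lower, against 23.5%, with a median of 0.106, against 0.005. They include Timp1, an inhibitor of matrix proteases (0.79, edgeR adjusted p = 2.66e-07), Plau, the urokinase gene (0.51, 0.000151), and Mmp10, a matrix protease gene (-2.14, 0.000103). Of 11 listed EGR1 targets 4 were higher and 2 lower, against the same shares, led by Thbs1 (1.88, 2.71e-09) and Timp1, which is on both lists, and then Cdkn1a (0.54, 4.89e-06) and Fn1 (-0.55, 2.85e-05). The EGR corepressor genes went apart, with Nab1 at 0.18 and Nab2 at -0.21. Without the block, edgeR called 0 of these targets in the group comparisons. Within suffix A, Thbs1 was higher in the NLS-N-VEGF population, by 0.67 without dox (edgeR adjusted p = 0.0357) and by 0.78 with dox (0.0091). Without library 1A or 2A of N-VEGF cells without dox, the former difference was again 0.67. The remaining library is then assumed to vary like those of the other groups. Thbs1 was the only 1 of 11 EGR1 targets called in these comparisons, against 0.0373% of all genes without dox and 11 genes with dox. Dcn, on the AP-1 list, fell with dox in the NLS-N-VEGF population of suffix A, at -0.51 (edgeR adjusted p = 0.0273). It was the only 1 of 20 AP-1 targets called there, against 0.814% of all genes. Without the block, the AP-1 targets had 2, 2, 1, 2 and 1 genes at an unadjusted p under 0.05 and the EGR1 targets 2, 1, 0, 1 and 1. The order of comparisons is that given for the early genes, against 2.34%, 1.48%, 0.852%, 1.18% and 0.603% of all genes.

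AU-rich elements govern the decay of early messages, and the proteins that bind them do not all act the same way on it. Between the suffixes 5 of 8 genes for such proteins were higher and 1 lower, against 22.2% and 23.5% of all genes. The first were Zfp36l1 (-0.87, edgeR adjusted p = 2.14e-05), Zfp36l2 (0.26, 0.000369), Elavl1 (0.29, 0.000781) and Hnrnpd (0.26, 0.00179). Of 6 genes for the breakdown of AP-1 proteins 2 were lower, Itch (-0.25) and Det1 (-0.31). Of 8 heat shock genes, listed as signs of stress, 5 were higher and 0 lower, with a median of 0.275, led by Hspe1 (0.50, 8.17e-06) and Bag3 (0.49, 2.46e-05). Hspa8, Hspd1 and Hsp90aa1 were called higher as well, and Hspa1a, Hspa1b, Dnajb1, Hsph1 and Hspb1 were not called or not tested. The part of the heat shock genes in the members' suffix differences was not tested. In the group comparisons without the block, edgeR called 0 genes of these 3 lists. Of them 1, a heat shock gene with dox in N-VEGF cells, had an unadjusted p under 0.05, against 1.48% of all genes. Within suffix A alone Zfp36l1, which speeds the decay of early messages, fell with dox in NLS-N-VEGF cells, at -0.72 (edgeR adjusted p = 0.00367). It was the only 1 of the 8 genes for AU-rich element binding proteins called there, against 0.814% of all genes.

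Over the 12 libraries, with the mean of each suffix removed, Fos and Egr2 had a Pearson r of 0.83, Egr1 and Egr2 of 0.67, Fos and Junb of 0.67 and Fos and Egr1 of 0.65. Jun and Fosl1 had an r of 0.01 on that scale and of -0.88 with the suffix means left in. The genes most like Fos, of 12058 with a mean of at least 1 CPM, were Adra2a (r = 0.94), Pomt1 (0.92) and Gm42067 (0.90). Those most like Egr1 were Zfp867 (0.94), Ier2 (0.94) and Prkab2 (0.93), those most like Jun were Farsa (0.97), Ints9 (0.93) and Gmpr (0.93), and those most like Fosl1 were Il11 (0.92), Cox5a (0.88) and Chmp3 (0.87). The libraries shared their preparation and 4 group means, so these values only describe them.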

How the data were processed

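Single reads from TruSeq v2 libraries were trimmed by the authors with Trim Galore, mapped to GRCm38 with TopHat2 2.1.0 on Bowtie2 2.2.6, and counted over genes with HTSeq 0.6.1. The strand option is not given in the sources used here. The deposited table holds raw counts that were not normalized. From these, CPM were computed here with library sizes scaled by trimmed means of M-values (TMM), and divided by the union of GENCODE exons for CPM per kb.

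Counts were tested in R 4.3.3 with edgeR 4.0.16 (filterByExpr by group, TMM, quasi-likelihood F test, 2-sided) in 1 fit of all 12 libraries with 1 mean per group, adjusted by Benjamini-Hochberg over 13608 genes, and called at an adjusted p under 0.05. SE of log2 differences came from the F statistic. The suffix comparison added the suffix to the group means. Pair ratios used CPM with 0.5 added, and likeness used log2 CPM with 2 added. Non-overlap means that the CPM ranges of 2 groups have no value in common.

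Number and suffix of the label pair libraries across groups. After removal of the group means, the 18 like-labelled pairs had a mean correlation of 0.59 (range 0.40 to 0.83) over 12058 genes, libraries of the same suffix and another number 0.471, and those of different suffixes -0.605. Only suffix A has both numbers. Within it like-labelled pairs had a mean of 0.514 (0.40 to 0.686), against 0.471 (0.144 to 0.678) for another number, so the number added little to the suffix. The common biological coefficient of variation was 15.5% without and 7.86% with the label as a block.

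The members and all gene lists were chosen with earlier results of these data known. All members were named, the 3 genes most like each of 4 members, and up to 4 called genes per list by adjusted p, of which some were left out for length. Alternatives were DESeq2 1.42.0, RLE scaling, no filter, at least 10 counts in every library, the block, the suffix as a term, 1 suffix alone, the libraries numbered 2 alone and each library left out. The 8-mean model, and the omission of each library under the block or in suffix A alone, were added after the data were seen. Promoter windows came from RefSeq, and protein sequences were not used here. For 1 gene of the AP-1 target list, which is counted with its list, the values are not reported here.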

Additional observations from a re-analysis of the deposited data

Results flagged for a closer look

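The 10 members were checked for a library far from the others in each suffix (4 and 8 libraries, 20 checks in all, where chance flags about 1 group in 20). Jund in suffix A stood out: library 1A of N-VEGF cells without dox had 21.6 CPM against 14.5 to 17.8 CPM in the other 7 libraries, a gap of 0.54 of the whole range. The same library had the lowest Egr1 value of the 12, 69.8 CPM, and the cause was not tested.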

How the results depend on the processing

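The count of members called with dox in N-VEGF cells moved from 0 to 1, in each case Egr1, under DESeq2, without the filter, with the replicate block and in suffix A alone. That for the difference of the dox effects moved to 1 (Egr1, lower) without the filter, and that for the populations without dox to 1 (Egr1, higher) without the filter and in suffix A alone. The cause was not tested. Without the filter the adjusted p-values of Egr1 were far smaller, 2.07e-17 with dox in N-VEGF cells, while 36 genes were called there against 5 with it. With the suffix as a term the adjusted p of Egr1 there was 0.0509, and with each library left out it lay between 0.273 and 1. In no other group comparison did the block change a call of a member. Between suffixes, DESeq2 and a minimum of 10 counts ended the call of Egr1 (adjusted p 0.133 and 0.0651), no filter ended that of Fosb (0.0821), and Fos was called without the filter (0.0296) and in the libraries numbered 2 alone (0.0366). Signs turned for Egr1 with dox in NLS-N-VEGF cells, which was -0.25 in suffix A alone and between -0.28 and 0.18 with a library left out. With dox between the populations, leaving out a library gave Fos -0.32 to 0.02, Egr1 -0.34 to 0.02 and Egr2 -0.51 to 0.14. The other 6 members, in the 5 group comparisons, had 0 calls in 570 alternative values, of which 75 changed sign. Depth limits Fos, Egr2 and Fosb, with 15 to 125 counts a library.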
